A study of Mus musculus with 6 samples.

Results

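Actg2, Cnn1 and Actc1 encode proteins of the contractile actin filament, and they were followed here in mouse MC3T3 cells given endothelial exosomes. The genes were taken by name, as the rows whose Ensembl identifier belongs to one of these symbols in GENCODE M21. All 3 had a row among the 680 genes of the expression table. MC3T3 is a mouse pre-osteoblast line from calvarial bone, and the labels give its tissue as bone and its cell type as stem cells. One group, the exosome group, was exposed for 48 hours to exosomes of HUVEC, primary human umbilical vein endothelial cells; exosomes are small vesicles that cells release. The other group, the control group, was left untreated and so received no vesicle preparation of any kind. Each group had 3 RNA libraries, numbered 1 to 3 in the titles, and both were grown in MEM-α with fetal bovine serum and antibiotics. The titles speak of biological repeats, but separate cultures are not stated, so p-values reflect only how far these libraries spread, which may be technical.

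The table holds genes that the authors had already called changed in these same 6 libraries, according to its name. That the 3 genes differ between the groups is therefore no independent finding, and each adjusted p below is too small as a measure of significance. Values are FPKM, that is, fragments corrected for the exonic length of the gene and the depth of the library. The depth recovered from the values was 51315986 to 54429032 reads in exosome libraries and 39630444 to 48369052 in control libraries. Of 12 osteoblast markers, 1 was in the table, Dmp1, a phosphoprotein of bone matrix, and it was lower with exosomes (log2 difference −1.19). Of 6 cartilage markers, Col11a2, a cartilage collagen gene, was present and also lower (log2 difference −0.18). None of 11 endothelial, 9 macrophage and leukocyte or 6 adipocyte markers was among the genes analysed here. The identity of the cells could therefore not be checked from their defining markers.

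Actin filaments sliding past myosin produce force in muscle and tension in stress fibres of other cells. Actg2 encodes γ-smooth muscle actin, the filament protein best known from the gut and other visceral smooth muscle. Cnn1 encodes calponin 1, which binds actin filaments in smooth muscle and restrains the ATPase of myosin. Actc1 encodes α-cardiac actin, the main filament actin of the heart, which is also made in developing skeletal muscle. Many contractile genes are controlled by serum response factor (SRF) and its actin-sensing cofactors, through a DNA element called the CArG box. In mesenchymal cells, smooth muscle proteins of this kind accompany a contractile, myofibroblast-like state.

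The start of the coding sequence is shown for the pair of actins, because their sequence similarity decides whether reads of one could be counted for the other. The sequences run 5′ to 3′ from the first coding base and were read from the GENCODE M21 transcripts (GRCm38). Capitals mark bases that differ between them or have no partner in the alignment.
Actg2: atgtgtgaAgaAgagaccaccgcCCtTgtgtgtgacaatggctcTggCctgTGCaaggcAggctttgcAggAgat
Actc1: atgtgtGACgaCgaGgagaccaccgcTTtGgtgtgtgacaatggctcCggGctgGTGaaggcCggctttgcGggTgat
Over the whole coding sequence, 1131 bases in Actg2 and 1134 in Actc1, the identity was 84.5%. The longest stretch that both coding sequences shared was 38 bases. No window of 50 bases of the Actg2, Cnn1 or Actc1 transcript occurred in a transcript of any other gene in the annotation, on either strand. Among windows of 30 bases, 23 of 1304 in Actg2, 0 of 2352 in Cnn1 and 16 of 1444 in Actc1 did, mostly shared between Actg2 and Actc1. The read length was not given in the sources used here. Cnn1 was 64.7% identical to Cnn2 and 63.2% to Cnn3 in its coding sequence.

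Promoter sequence from 250 bases before to 50 after a RefSeq transcript start (GRCm38.p6) was available for 2 of the 3 genes, Cnn1 and Actc1. The RefSeq starts, 22099253 for Cnn1 and 114052875 for Actc1, lie inside the GENCODE gene bounds given further on, so the windows are not placed by the GENCODE starts, and that of Actc1 lies wholly within the GENCODE gene. These promoters are shown because SRF acts through the CArG box. The search covered the exact CArG box, read on both strands, and the TATA element TATAAA, with its reverse complement; the motifs do not overlap in what was found. Capitals mark matches. The Cnn1 sequence is chr9:22099003-22099302 on the plus strand and the Actc1 sequence chr2:114052826-114053125 on the minus strand.
Cnn1: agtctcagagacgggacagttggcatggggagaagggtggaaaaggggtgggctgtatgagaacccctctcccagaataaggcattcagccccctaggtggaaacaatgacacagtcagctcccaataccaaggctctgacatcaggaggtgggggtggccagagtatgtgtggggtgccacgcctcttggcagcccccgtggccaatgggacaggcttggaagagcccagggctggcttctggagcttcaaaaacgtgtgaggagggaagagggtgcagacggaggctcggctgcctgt
Actc1: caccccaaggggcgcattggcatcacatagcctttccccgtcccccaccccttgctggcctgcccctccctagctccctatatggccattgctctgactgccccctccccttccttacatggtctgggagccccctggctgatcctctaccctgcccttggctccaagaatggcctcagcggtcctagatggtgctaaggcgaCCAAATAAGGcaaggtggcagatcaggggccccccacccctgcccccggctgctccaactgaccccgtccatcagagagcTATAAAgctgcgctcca
The Actc1 window held 1 CArG box, beginning 47 bases upstream of the RefSeq start, and 1 TATAAA element, 33 bases downstream of it. Neither string was in the Cnn1 window. Among all 32851 promoter windows, 1.63% held a CArG box and 13.6% a TATAAA element. A match describes these letters and is not a measured binding site.

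Actg2 lies on chromosome 6 from 83512905 to 83536265 on the minus strand of GRCm38 and has 1557 exonic bases. Its level was 0.579, 0.472 and 0.300 FPKM in exosome libraries 1, 2 and 3, against 1.07, 1.21 and 0.823 FPKM in control libraries 1, 2 and 3. Every exosome library was below every control library, and the gap between the groups was 0.244 FPKM. Actg2 had the highest level of the 3 genes in each of the 6 libraries. It averaged 0.450 ± 0.141 FPKM with exosomes and 1.03 ± 0.195 in controls (SD, n = 3 each), so the control mean was 2.29 times the exosome mean. Actg2 fell by 0.49 on the log2(FPKM + 1) scale (SE 0.10, 95% interval −0.75 to −0.23, limma adjusted p = 0.0179). This scale understates the change of weakly expressed genes. Fitted to the recovered reads with limma-voom, the difference was −1.21 ± 0.31 (SE, limma adjusted p = 0.00943). Without exosome library 2 the call was lost (limma adjusted p = 0.0556).

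Cnn1 lies on chromosome 9 from 22099216 to 22109630 on the plus strand and has 2736 exonic bases. Its level was 0.252, 0.121 and 0.135 FPKM in exosome libraries 1, 2 and 3, against 0.424, 0.403 and 0.416 FPKM in control libraries 1, 2 and 3. The groups did not overlap, with a gap of 0.150 FPKM. The control libraries lay close together (coefficient of variation 2.62%), nearer than the 14.2% that counting error alone would give at their number of reads, while the exosome libraries varied by 42.6%. Cnn1 averaged 0.170 ± 0.0721 FPKM with exosomes and 0.414 ± 0.0109 in controls (SD, n = 3 each), a control mean 2.44 times the exosome mean. Cnn1 fell by 0.28 on the log2(FPKM + 1) scale (SE 0.05, 95% interval −0.40 to −0.15, limma adjusted p = 0.0131). The fit to recovered reads gave −1.35 ± 0.33 (SE, limma adjusted p = 0.00784). Centring each library on its median over the table ended the call, at −0.13 (limma adjusted p = 0.0762).

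Actc1 lies on chromosome 2 from 114047282 to 114053548 on the minus strand and has 1618 exonic bases. Its level was 0.320, 0.0681 and 0.0723 FPKM in exosome libraries 1, 2 and 3, against 0.0624 and 0.0284 FPKM in control libraries 1 and 2, and it was listed at 0 in control library 3. Exosome library 1 stood far above the other 5 libraries, at 4.56 times the mean of the other exosome libraries. The groups did not overlap, but only 0.00575 FPKM separated exosome library 2 from control library 1. The difference was 0.16 on the log2(FPKM + 1) scale (SE 0.09, 95% interval −0.08 to 0.39) and did not pass (limma adjusted p = 0.173). It passed after median centring and in the fit to recovered reads (limma adjusted p = 0.0410 and 0.0453), with log2 differences of 0.30 and 2.25. Without exosome library 1 the difference on the log2(FPKM + 1) scale was 0.06 (limma adjusted p = 0.246).

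**Figure D1:**
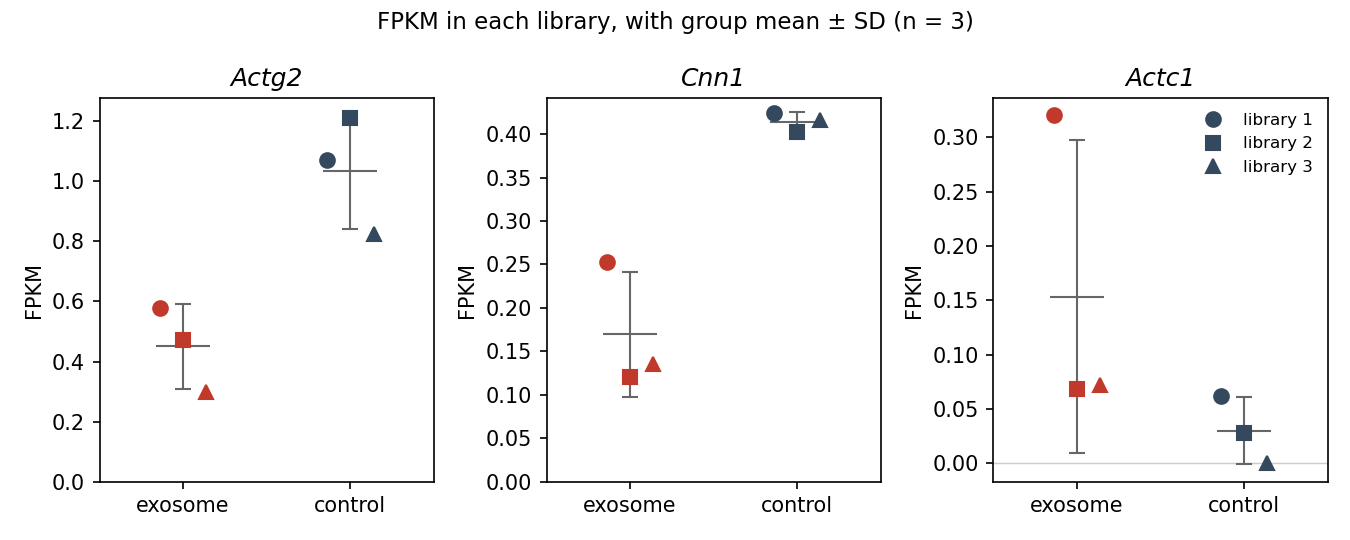
FPKM of Actg2, Cnn1 and Actc1 in each of the 3 exosome and 3 control libraries, with the group mean and SD as bars; the marker shape gives the library number and each panel has its own scale. Actg2 and Cnn1 sit below the controls in every exosome library, and Actc1 is set apart by exosome library 1, at 0.320 FPKM.

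The 3 genes were weakly expressed, and the number of reads behind each value limits what can be read from it. Actg2 rested on 47, 40 and 24 reads in exosome libraries 1, 2 and 3 and on 66, 82 and 62 in control libraries 1, 2 and 3. Cnn1 rested on 36, 18 and 19 reads in exosome libraries and 46, 48 and 55 in control libraries. Actc1 rested on 27, 6 and 6 reads in exosome libraries and 4, 2 and 0 in control libraries, so 69.2% of its exosome reads came from library 1. A count of 0 in control library 3 allows a level of up to 0.0383 FPKM, the value of 3 reads there. Summed over libraries and divided by depth, the exosome group had 0.441 times the Actg2 reads of the control group (exact 95% interval 0.347 to 0.557) and 0.408 times the Cnn1 reads (0.304 to 0.544). For Actc1 the ratio was 5.42 (2.28 to 15.7), and without exosome library 1 it was 2.49 (0.864 to 8.08), on 12 exosome and 6 control reads. These intervals cover counting error only. They are too narrow if both mates of a pair were counted. The limit for Actc1 in control library 3 would then be too low, and the counting error given for Cnn1 too small. Over the table, 74.7% of the recovered values of 2 to 21 reads were even numbers.

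**Figure D2:**
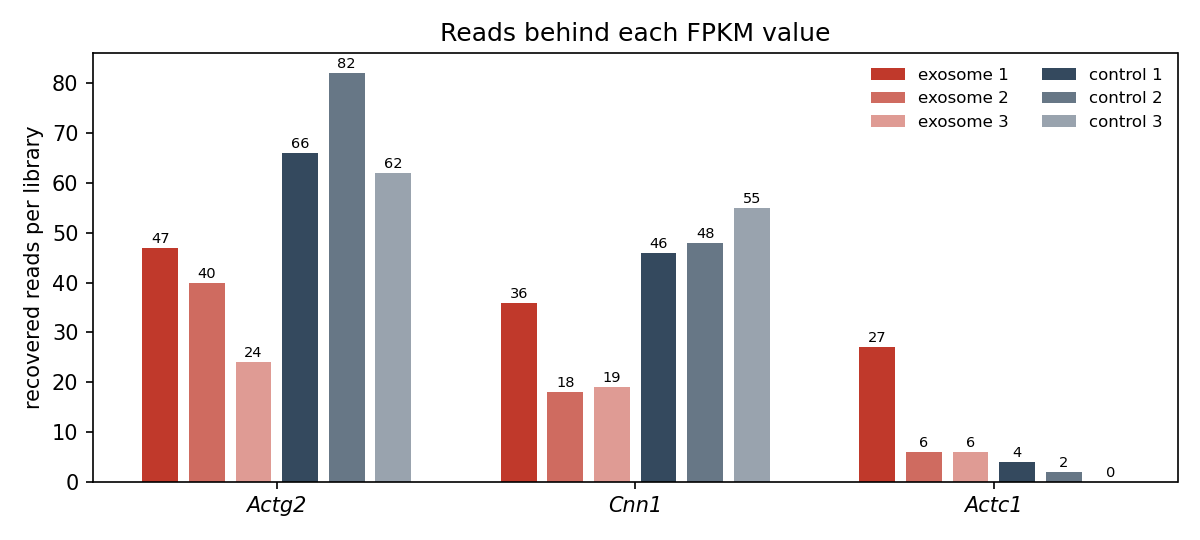
Reads recovered from the FPKM values, as bars for the 3 exosome (red) and 3 control (dark blue) libraries of each gene, with the number above each bar. Actc1 has 27 reads in exosome library 1 and at most 6 in any other library.

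All 3 genes had groups that did not overlap, which was also true of 591 of the 680 genes (86.9%), all of them chosen on these libraries. In 64.1% of the table the exosome libraries were all lower, as for Actg2 and Cnn1, and in 22.8% they were all higher, as for Actc1. The limma test called 2 of the 3, Actg2 and Cnn1, both lower, against 59.3% of the table called in either direction, 43.8% called lower and 15.4% called higher. The share of the 3 that was called is close to that of the table. After median centring 2 of the 3 passed, Actg2 and Actc1, against 47.6% of the table, and in the fit to recovered reads all 3 passed, against 94.4% of 661 genes. With 3 libraries against 3, the two-sided exact permutation test cannot give a p below 0.1, and it gave 0.1 for each of the 3 genes. Actg2, Cnn1 and Actc1 ranked 165, 286 and 440 of 680 by mean FPKM. Among the 503 genes with a lower mean in exosome libraries, 407 had a larger fold than Actg2 and 368 a larger fold than Cnn1. Among the 177 with a higher mean, 38 had a larger fold than Actc1, whose exosome mean was 5.07 times the control mean. Genes at 0 in every library of their lower group count as larger here. A mean above 0 in that group was held by 416 of the 503 lower and 154 of the 177 higher genes. The fold of Actc1 was 2.32 without exosome library 1. The median fold over the 154 higher genes with a control mean above 0 was 2.36, but with exosome library 1 kept.

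**Figure D3:**
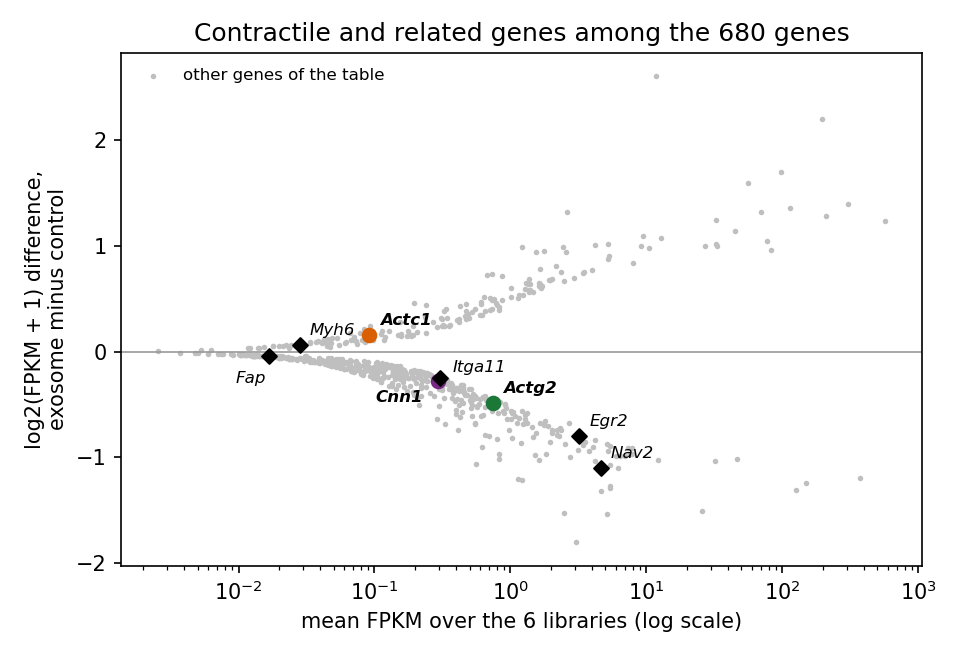
Difference in log2(FPKM + 1), exosome minus control, against mean FPKM (log axis) for the 680 genes, with Actg2, Cnn1 and Actc1 in colour and the other genes of the contractile and cytoskeletal lists as black diamonds. Actg2 and Cnn1 lie among the lower genes of like level, and Actc1 lies near 0 among the weakly expressed genes.

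Over the table the median of log2(FPKM + 1) averaged 0.15 in exosome and 0.29 in control libraries, a shift of −0.15. Relative to that shift, Actg2 differed by −0.34, Cnn1 by −0.13 and Actc1 by 0.30. The shift comes from genes selected as changed, most of them lower. The directions of the 3 genes were the same in all settings run. In bulk RNA, fewer cells making a transcript and less of it per cell cannot be told apart.

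**Figure D4:**
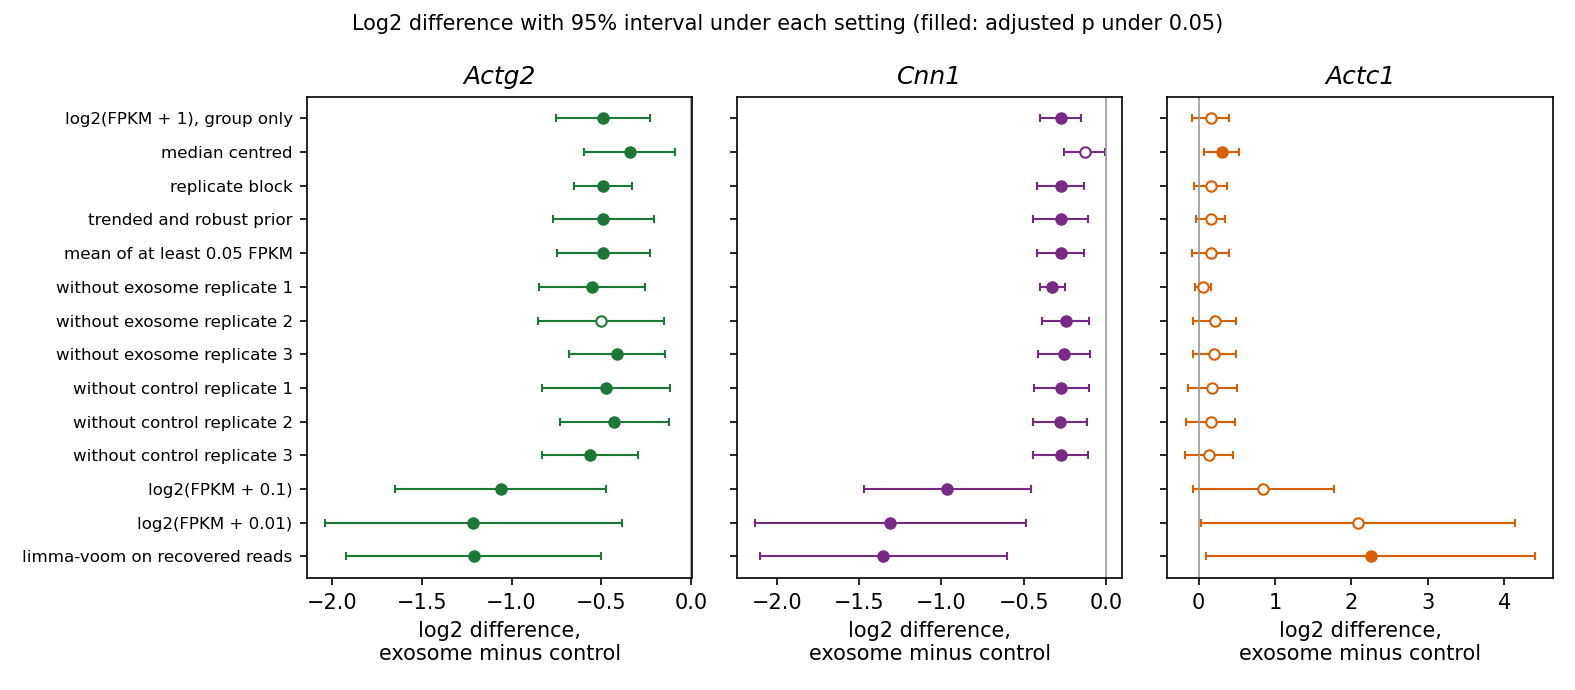
Log2 difference, exosome minus control, with its 95% interval for Actg2, Cnn1 and Actc1 under each setting, filled where the adjusted p was under 0.05. The smaller pseudocounts and the fit to reads give larger differences on their own scales, and the interval of Actc1 reaches below 0 in most settings.

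Within a library the ratio of 2 genes does not depend on how libraries were scaled. The ratio of Actg2 to Cnn1 FPKM was 2.29, 3.90 and 2.22 in exosome libraries and 2.52, 3.00 and 1.98 in control libraries. These ranges overlapped, and no difference was detected (two-sided exact permutation p = 0.7), which does not show that the genes changed by equal amounts. The ratio of Actg2 to Actc1 FPKM was 1.81, 6.93 and 4.16 in exosome libraries, against 17.1 and 42.6 in control libraries 1 and 2. In control library 3 Actc1 was listed at 0 and gave no ratio. Each exosome ratio was below each control ratio that could be formed. This had to be so, because every exosome library was lower in Actg2 and higher in Actc1 than every control library. The ratio therefore adds nothing to the separate values, and its control values rest on 4 and 2 Actc1 reads.

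Exosome library 1 held the highest value of the exosome group in all 3 genes. It did so in 318 of the 680 genes (46.8%). The control libraries had no such common order, as Actg2 was highest in library 2 while Cnn1 and Actc1 were highest in library 1. Whether library 1 differed in its cells or its preparation was not tested.

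Around the 3 genes, 7 lists of contractile and cytoskeletal genes were looked up, with 195 genes in all and 8 of them in the table. Of these 8, 4 were called lower, 0 higher and 4 not called, a share near the 59.3% called and 43.8% called lower over the table. The 8 include Actg2, Cnn1 and Actc1 themselves, and Actg2 and Cnn1 are among the 4 called lower. The median log2 difference of the 8 was −0.26, against −0.13 for all 680 genes, so it is not separate from the 3 genes. The smooth muscle list of 30 genes was represented only by Actg2 and Cnn1. Its other 28 genes, among them Acta2, Tagln and Myh11, are not among the genes analysed here, and their levels are unknown. The same holds for the other 4 of 6 actin isoforms and for the other 5 of 6 genes of the calponin and transgelin family.

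From the striated muscle list, 2 of 50 genes were in the table, Actc1 and Myh6. Myh6 encodes the α-cardiac myosin heavy chain, the motor partner of cardiac actin. Its level was 0.120, 0.0109 and 0.0232 FPKM in exosome libraries 1, 2 and 3, against 0.0150 FPKM in control library 1, and it was listed at 0 in control libraries 2 and 3. As for Actc1, exosome library 1 stood apart, with 42 of the 54 exosome reads of Myh6. The groups overlapped, and the difference of 0.06 on the log2(FPKM + 1) scale did not pass (limma adjusted p = 0.240). It passed after median centring and in the fit to reads (limma adjusted p = 0.0175 and 0.0223), with log2 differences of 0.21 and 3.20. Centring raises every difference by the same amount. Without exosome library 1 the difference of Myh6 on the log2(FPKM + 1) scale was 0.02 (limma adjusted p = 0.571).

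Regulators and matrix partners of the contractile apparatus were sparse in the table. Of 39 genes of the TGF-β and myofibroblast list, Itga11 and Fap were present. Itga11, a collagen-binding integrin subunit of mesenchymal cells, had 0.224, 0.193 and 0.152 FPKM in exosome libraries and 0.408, 0.497 and 0.334 in control libraries (limma adjusted p = 0.0175). Its groups did not overlap, but centring ended the call (limma adjusted p = 0.143), as did leaving out exosome library 2 or 3 (0.0564 and 0.0565, limma). Fap, a surface protease of activated fibroblasts, rested on 0, 2 and 0 reads in exosome libraries and 4, 8 and 12 in control libraries, and did not pass (log2 difference −0.04, limma adjusted p = 0.149). It passed as lower with a pseudocount of 0.01, with a robust trended prior and in the fit to reads (limma adjusted p = 0.0129, 0.0296 and 0.00461), and as higher after median centring (0.0340, limma).

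Of 22 SRF cofactors and targets, Egr2 alone was present. This immediate early transcription factor gene had 2.26, 1.96 and 1.70 FPKM in exosome libraries and 4.17, 6.77 and 2.41 in control libraries (limma adjusted p = 0.0692). Egr2 was called under pseudocounts of 0.1 and 0.01, with a robust trended prior, in the fit to reads and without control library 3 (limma adjusted p = 0.0350, 0.0478, 0.0347, 0.0196 and 0.0243). Control library 2 held its highest value, and without it the log2 difference was −0.50, against −0.80 with all libraries. The gene for SRF itself and those of its cofactors have no row in the table used here. Of 48 actin cytoskeleton regulators, Nav2, of the neuron navigator family, was present. It had 2.30, 2.50 and 2.82 FPKM in exosome libraries and 6.27, 8.19 and 5.51 in control libraries (limma adjusted p = 0.00634).

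The coding genes with the pattern closest to each of the 3 were found from the share of a gene's summed FPKM that each of the 6 libraries held. The distance is the sum of absolute differences in share, divided by 2, in percentage points, over 305 other named coding genes. Closest to Actg2 were Itga11, Ceacam1 and Fat4, at 2.05, 3.19 and 3.48 points, where the median gene lay 23.2 points away. Itga11, picked as the closest of the 305, had shares of 12.4, 10.7 and 8.40% in exosome libraries and 22.6, 27.5 and 18.5% in control libraries. Those of Actg2 were 13.0, 10.6 and 6.75% in exosome libraries and 24.0, 27.1 and 18.5% in control libraries. Closest to Cnn1 were the histone gene Hist1h2be, the protocadherin gene Pcdhb21 and the cation channel gene Trpv3, at 4.56, 4.63 and 4.72 points, against a median of 22.0. Both medians are over coding genes of either direction, so a shared direction alone brings a gene closer.

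Closest to Actc1 was Myh6, at 13.5 points, followed by Dnah7b, a dynein heavy chain gene, and Tmprss9, a serine protease gene, at 17.2 and 17.5 points. The median of 53.7 is also over coding genes of either direction, and most genes of the table were lower with exosomes. Exosome library 1 held 58.1% of the summed FPKM of Actc1, 70.9% of that of Myh6, 75.2% of that of Dnah7b and 64.8% of that of Tmprss9. Dnah7b and Tmprss9 were listed at 0 in all control libraries and averaged only 0.0051 and 0.0285 FPKM in exosome libraries. Their shares therefore rest on very low values. All genes compared had been selected on the same 6 libraries, so likeness over them is a description.

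**Figure D5:**
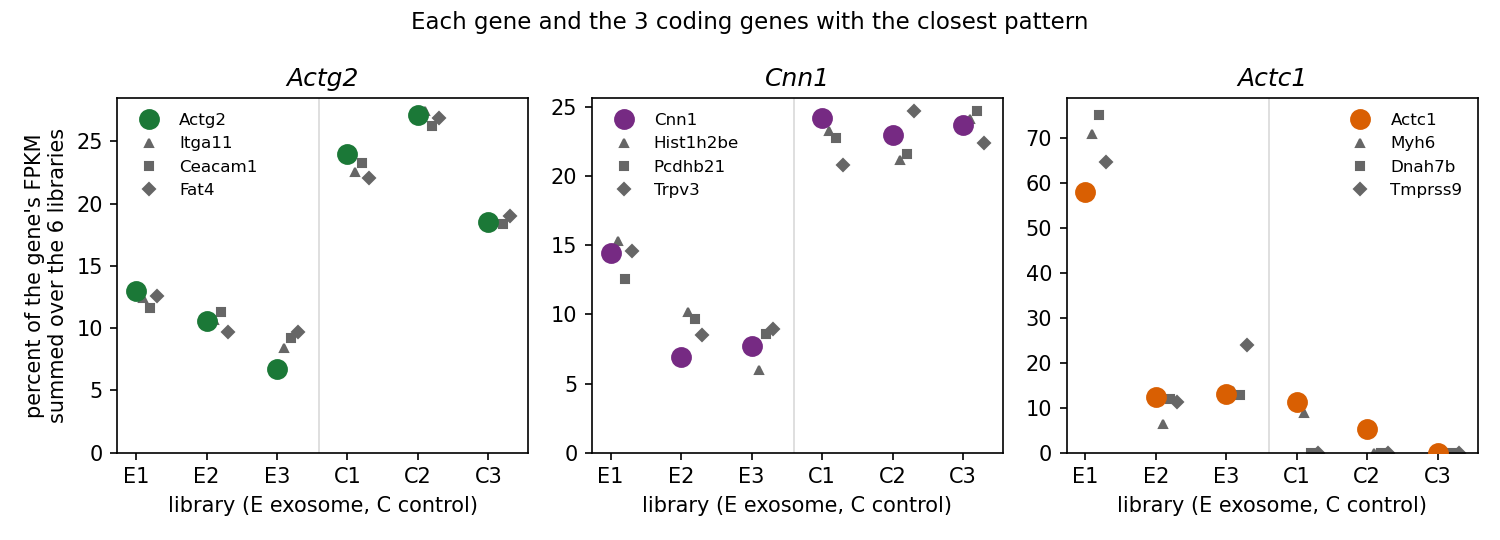
Share of each gene's FPKM, summed over the 6 libraries, that fell in each exosome (E1 to E3) and control (C1 to C3) library, for Actg2, Cnn1 and Actc1 (large coloured points) and the 3 coding genes closest to each (small grey points). Exosome library 1 holds 58.1% of Actc1 and 70.9% of its closest gene, Myh6.

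The 3 genes lie on different chromosomes and apart from other genes of the table. The nearest listed gene was 225491 bases from Actg2, 261869 from Cnn1 and 218161 from Actc1. Neither Actg2 nor Cnn1 overlaps another annotated gene. Actc1 overlaps A530058N18Rik, a non-coding gene on the other strand, which shares 0 exonic bases with it. The sources used here do not say whether reads were counted by strand.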

How the data were processed

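RNA of 3 exosome and 3 control libraries was analysed; per the labels' protocols, Trizol was used to extract RNA and a SMARTer mRNA kit to build libraries. The deposited values are FPKM, as the name of the deposited table states, for genes the authors had called changed. Aligner, counter, build, caller and threshold are not given in the sources used here. Groups and replicate numbers come from the titles. GENCODE M21 matched 672 of 680 identifiers. Multiplied by exon length, the FPKM of 661 genes were multiples of the worth of 1 read (tolerance 0.02 reads), which yields depth and reads. The test was limma 3.58.1 (R 4.3.3) on log2(FPKM + 1), two-sided, group only, with Benjamini-Hochberg adjustment over 680 genes and a threshold of 0.05; there was no filter on low values. Folds are ratios of mean FPKM. The fit was tested on simulated data. Exact tests and intervals used scipy 1.17.1 and alignments biopython 1.88. Alternatives were pseudocounts of 0.1 and 0.01, a mean of at least 0.05 FPKM, a replicate block, median centring, a robust trended prior, limma-voom on recovered reads and leaving out each library. The genes named are the 3, every list gene in the table and the 3 closest coding genes to each, leaving out predicted and Y-linked ones. Genes, lists and tests were chosen with earlier results of these data known. Same-numbered libraries are not stated to be paired.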

Additional observations from a re-analysis of the deposited data

How the results depend on the processing

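The test called 403 genes. It called 611 with a pseudocount of 0.01 and 624 with limma-voom on recovered reads (of 661 tested), of which 401 and 387 were among the 403. With a replicate block it called 201, of which 197 were shared. Deviations from the group means correlated at −0.13, 0.08 and −0.22 between libraries of the same number. No pairing was detected, but so few libraries cannot exclude it. The block ended no call of Actg2 or Cnn1 (limma adjusted p = 0.0264 and 0.0393). Leaving out 1 library gave 164 to 356 genes, with fewer samples. The count stayed within 1.5 times under the other settings, but median centring called 212 higher and 112 lower, against 105 higher and 298 lower. List genes past the threshold numbered 4, 8 with limma-voom and 2 to 5 when 1 library was left out. Actg2 lay between −0.56 and −0.41 when 1 library was left out, and lost its call only without exosome library 2. Cnn1 was −0.13 after centring, its only lost call. Actc1 was 0.30 after centring and 2.25 with limma-voom, both calls gained; leaving out 1 library gave 0.06 to 0.21. Fap changed sign under centring, at 0.10 (limma adjusted p = 0.0340) against −0.04, since centring adds 0.15 to every difference; it was −1.76 with a pseudocount of 0.01 and −3.49 with limma-voom, on 2 exosome and 24 control reads. Actc1 rests on 39 exosome and 6 control reads.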
